A study of Arabidopsis thaliana with 4 samples.

Results

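The cuticular wax genes described here are 10 Arabidopsis thaliana loci that build or control the lipid coat of the shoot surface: KCS6 (AT1G68530), KCR1 (AT1G67730), CER10 (AT3G55360), CER2 (AT4G24510), CER3 (AT5G57800), CER1 (AT1G02205), MAH1 (AT1G57750), CER4 (AT4G33790), WSD1 (AT5G37300) and MYB96 (AT5G62470). They were chosen as loci of known function, with earlier results of these data known. All 10 had at least 1 probe, 17 of the 43533 probes and 10 of the 25356 genes that the array gave. Whole seedlings aged 14 d of the ced2 mutant and of a wild type were kept in 40% polyethylene glycol (PEG), an osmoticum that draws water from tissue, for 6 h, and each RNA came from 20 pooled plants, with 2 arrays per genotype. Both genotypes are given as ecotype gl1-Col0, a background without leaf hairs, and the wild type carries a luciferase reporter under the NCED3 promoter (NCED3pro:LUC), a transgene that the labels name for the wild type only. All 4 arrays are of PEG-treated seedlings, so every value below compares genotypes under stress and none shows the response to stress.

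Wax is made in epidermal cells. Fatty acids are lengthened in the endoplasmic reticulum by an elongase complex to very long chains, which then enter one of a pair of branches: an alkane branch, whose products are in part oxidised to secondary alcohols and ketones, and an alcohol branch, whose primary alcohols are in part joined to fatty acids as wax esters. Drought and abscisic acid (ABA) are known to raise wax deposition on leaves, in part through the transcription factor MYB96.

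The genotype of each measurement depends on which deposited labels are followed. The authors' value table holds the same measurements under the opposite genotype: each of its columns correlated at r = 0.999999 across probes with a scanner file of the other genotype, and at -0.573 to -0.369 with the file of its own sample. All directions below follow the scanner files ("WT files" and "ced2 files"), and under the value table's labels every sign would turn. VSR1, a vacuolar sorting receptor that is held, from background knowledge and not from the labels, to be the gene mutated in ced2, had log2 signals of 2.80 and 2.87 in the WT files and -0.85 and -0.82 in the ced2 files. Whether that mutation lowers the transcript is not given in the sources used here. NCED3, the key dioxygenase of ABA synthesis, had 0.68 and 0.67 against -0.65 and -0.67. Levels are log2 processed signals minus the 75th percentile of the array, and compare 1 probe across arrays, not genes with each other.

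In the ced2 files 7 of the 10 wax genes were lower, 1 was higher and 2 did not pass an adjusted p of 0.05. The falls were largest for WSD1, the wax ester synthase (4.07-fold lower), and CER1, the alkane-forming enzyme (3.49-fold lower), and the rise was that of CER4, the alcohol-forming reductase (6.06-fold by the processed signal, a size that rests on very dim WT spots and a call lost with normexp background correction). Passing the threshold does not set these genes apart, because 77.9% of all 20835 genes tested passed it, 42.4% as higher and 35.6% as lower. A difference of at least 2-fold was less common, with 11.3% of all genes (8.01% higher and 3.32% lower), and was reached by 3 of the 10, CER1, WSD1 and CER4. The median difference of the 10, a list chosen with earlier results of these data known, was -0.53, against 0.05 over all genes tested. All these p-values rest on replicates that lay close together. Replicates of the wild type were apart by a median of 0.0456 log2 units and those of ced2 by 0.034, whereas repeat spots of 50 probes on the same array were apart by 0.0897 and arrays of unlike genotype by 0.351 to 0.356. The labels call the replicates biological. Repeat spots lie at different places on an array, whereas replicate arrays were compared at the same places, so these spreads are unlike measures. They cannot show whether the replicates were technical copies.

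**Figure D1:**
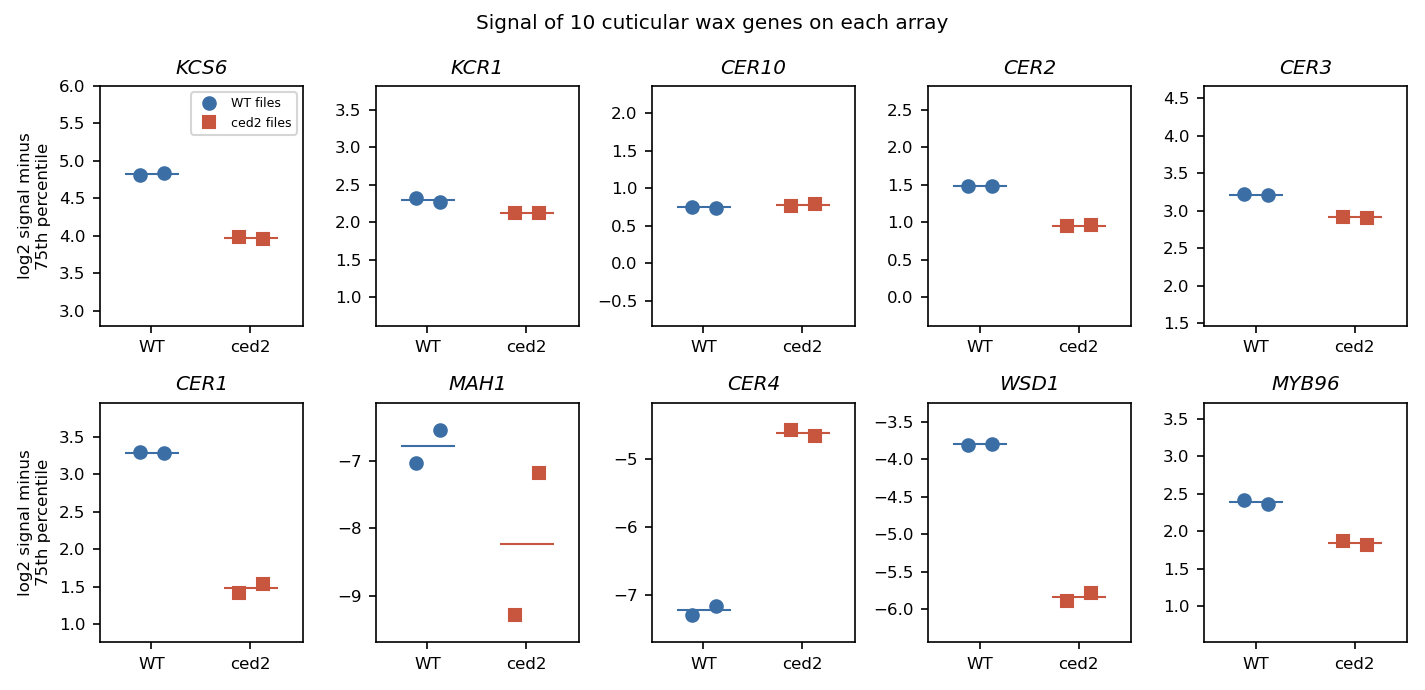
Log2 signal relative to the 75th percentile of the array (vertical axes, which differ in position between panels) for the 10 wax genes, with 1 point per array (circles for WT files, squares for ced2 files) and a line at the mean of each group of 2. CER1 and WSD1 sit about 2 units lower in the ced2 files, CER4 sits higher, CER10 is level, and the MAH1 arrays of the ced2 files lie far apart.

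The elongase genes were lower to unequal degrees. KCS6, the main condensing enzyme of elongation for shoot wax, had log2 signals of 4.81 and 4.84 in the WT files and 3.98 and 3.96 in the ced2 files. Both ced2 arrays lay below both WT arrays by far more than either pair was apart, and KCS6 fell by 0.86 (SE 0.0254, limma adjusted p = 0.000227). CER2, a protein of the BAHD acyltransferase family that is needed for elongation to the longest chains, had 1.49 and 1.48 against 0.95 and 0.96, and fell by 0.53 (adjusted p = 0.000348). KCR1, the ketoacyl reductase of the complex, had 2.32 and 2.27 against 2.12 and 2.13 and fell by 0.17, or 1.13-fold (adjusted p = 0.00932). This small fall did not pass with quantile normalization (-0.086, adjusted p = 0.0823), with normexp background correction (-0.075, adjusted p = 0.138) or without either ced2 array (adjusted p = 0.0667 and 0.0581). CER10, the enoyl reductase that completes each round, had 0.75 and 0.74 against 0.76 and 0.79. Its difference of 0.03 (95% interval -0.04 to 0.11, adjusted p = 0.32) did not pass. Among these 4 genes, then, the condensing enzyme and CER2 moved by more than either reductase.

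KCS6 was measured by 6 probes, 3 assigned to each of 2 RefSeq transcripts, and all 6 were lower in the ced2 files. The differences ran from -0.86 for the brightest probe to -0.63 for the dimmest. The order from bright to dim was lost with quantile normalization, where the 6 lay between -0.81 and -0.67. The pair of CER10 probes disagreed in sign, at 0.03 and -0.07, so that their mean turned the sign of the gene (-0.021, adjusted p = 0.507).

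**Figure D2:**
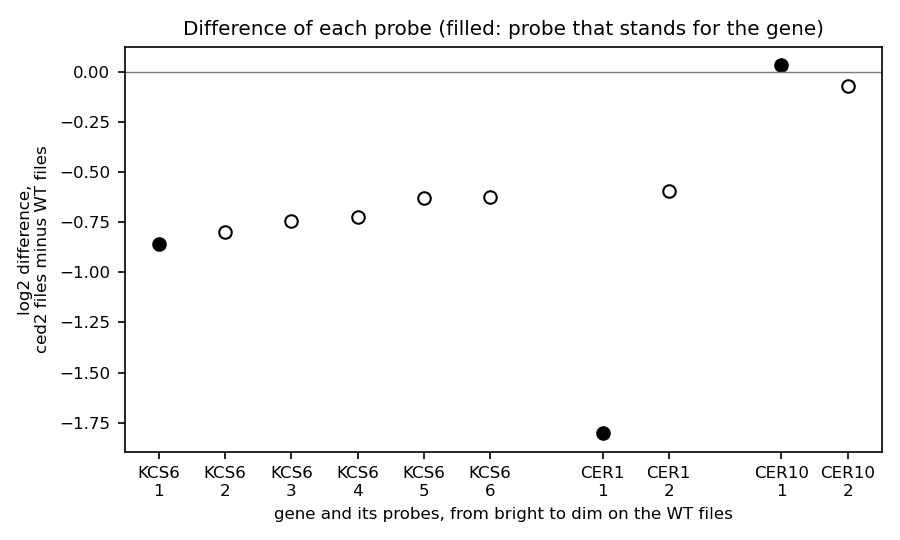
Log2 difference between ced2 and WT files (vertical axis) for each probe of KCS6, CER1 and CER10, ordered from the brightest to the dimmest in the WT files, with the probe that stands for the gene filled. All 6 KCS6 probes lie between -0.86 and -0.63, the CER1 probes lie at -1.80 and -0.60, and the CER10 probes lie on either side of 0.

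In the alkane branch CER1 differed by much more than its partner. CER1 and CER3 act together to turn very long acyl chains into alkanes. CER1 had log2 signals of 3.29 and 3.28 in the WT files and 1.42 and 1.54 in the ced2 files. It fell by 1.80 (SE 0.0488, limma adjusted p = 0.000207). CER3 had 3.22 and 3.21 against 2.92 and 2.91 and fell by 0.30, or 1.23-fold (adjusted p = 0.00107). The 95% intervals of the differences, -1.95 to -1.66 for CER1 and -0.36 to -0.23 for CER3, do not meet. A second CER1 probe, of the same RefSeq transcript, was far dimmer and differed by -0.60, and the mean of both probes fell by 1.20 (adjusted p = 0.000339). Which of the CER1 probes is nearer to the change of the transcript was not tested.

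MAH1, the cytochrome P450 (CYP96A15) that hydroxylates alkanes, was hardly detected. Its processed signals were 25.5 and 29.9 in the WT files and 5.97 and 30.8 in the ced2 files, each with a scanner error of 3.92 to 5.94, and the probe was not well above background on ced2 replicate 1. On the log2 scale this gave -7.03 and -6.55 against -9.28 and -7.18, so that 1 array decided the difference of -1.44 (95% interval -3.85 to 0.97, adjusted p = 0.188). Without ced2 replicate 1 it was -0.39 (adjusted p = 0.306), and without ced2 replicate 2 it was -2.49 (adjusted p = 0.0106). The gene did pass with the local background subtracted and an offset of 50 (-0.69, adjusted p = 0.0103) and with normexp (-1.71, adjusted p = 0.00207). Under normexp the regulator SHN1, dim on every one of the 4 arrays, was shifted by as much (-1.79).

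The alcohol branch held the lowest and the highest difference of the 10. WSD1, which joins primary alcohols to acyl chains as wax esters, had log2 signals of -3.81 and -3.80 in the WT files and -5.89 and -5.78 in the ced2 files. The arrays of each pair were close, and WSD1 fell by 2.03 (SE 0.0477, limma adjusted p = 0.000189). Its processed signals, 238 and 201 against 62.8 and 81.4, were well above background on all 4 arrays. With the local background subtracted the fall was 1.44 (adjusted p = 0.00012), and with normexp it was 1.85 (adjusted p = 0.000378). WSD1 thus stayed lower in the ced2 files under each of these background treatments, with a size between 1.44 and 2.03.

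CER4, the acyl-CoA reductase that makes the primary alcohols which WSD1 uses, went the other way in the processed signal. It had -7.29 and -7.16 in the WT files and -4.58 and -4.67 in the ced2 files, a rise of 2.60 (SE 0.063, limma adjusted p = 0.000191). The WT values are near the floor of the scan: the processed signals were 21.4 and 19.6 there, with scanner errors of 4.06 and 3.34, against 156 and 175 in the ced2 files, and the lowest signals called well above background on the WT arrays were 14.1 and 11.6. Before any correction, the median spot intensity was 57 and 53.5 in the WT files and 185 and 211 in the ced2 files, over a local background of 20 to 22.5. The ced2 spots were thus the brighter ones in the unprocessed scan as well. The size of the rise depended on the background correction: with the local background subtracted and an offset of 50, which by construction shrinks the folds of dim spots, CER4 rose by 1.01 (adjusted p = 0.000713). CER4, MAH1 and WSD1 each had 1 probe, so no second probe bears on their values.

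With normexp background correction the CER4 difference was -0.04 (adjusted p = 0.813). That setting estimated a mean background of -83.4 and -98.5 for the WT arrays against 6 and 5.1 for the ced2 arrays, which adds signal to dim spots of the WT files. The WT arrays held 4 and 10 spots with a local background over 50, up to 2451 and 3315.5, and the ced2 arrays held none. With those spots left out of the estimate, the background means were -0.267 and 3.86 for the WT arrays, and CER4 rose by 1.01 (adjusted p = 0.000261). In the same setting MAH1 differed by -0.77 (adjusted p = 0.00727), WSD1 fell by 1.49 (adjusted p = 6.9e-05) and CER1 fell by 1.75 (adjusted p = 5.66e-05). The subtraction of the local background and the normexp estimate without those spots were added after the values were seen.

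**Figure D3:**
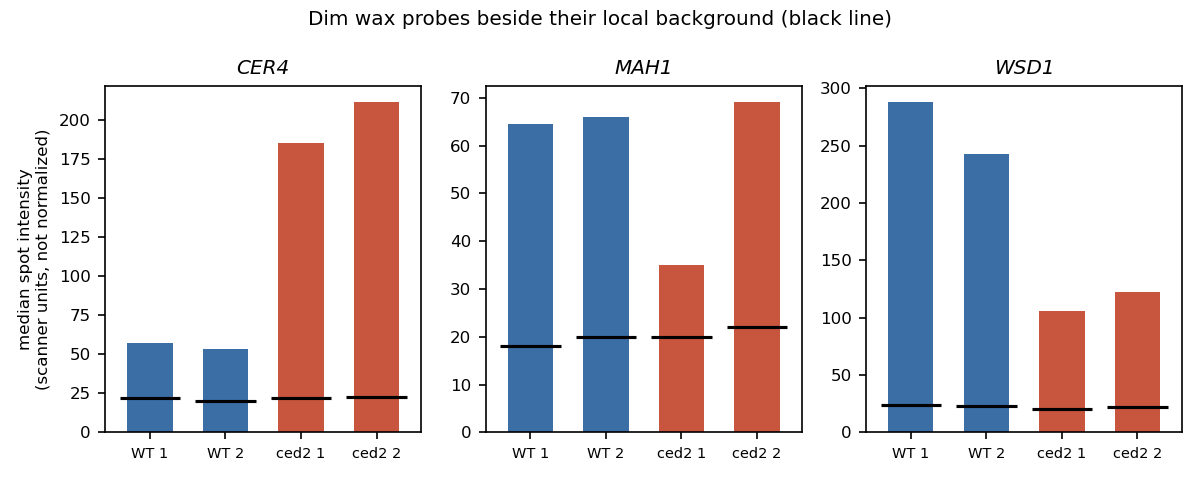
Median spot intensity in scanner units, not normalized (vertical axes from 0), of the CER4, MAH1 and WSD1 probes on each array, with a black line at the local background. CER4 reads 57 and 53.5 in the WT files and 185 and 211 in the ced2 files, WSD1 is dimmer in both ced2 files, and only ced2 replicate 1 stands low for MAH1.

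**Figure D4:**
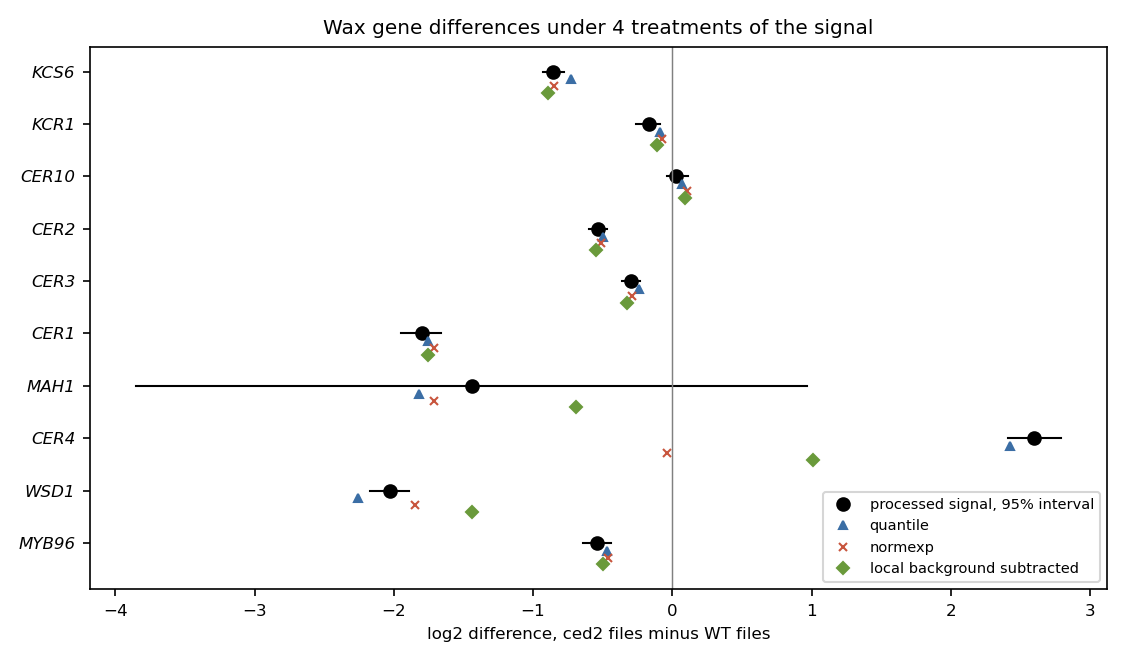
Log2 difference between ced2 and WT files (horizontal axis) for the 10 wax genes, from the processed signal with its 95% interval (black) and, without interval, from quantile normalization (triangles), normexp (crosses) and local background subtraction (diamonds). The settings lie close together for the bright genes and spread apart for CER4, MAH1 and WSD1.

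MYB96, which binds promoters of elongase and other wax genes, had log2 signals of 2.41 and 2.36 in the WT files and 1.87 and 1.82 in the ced2 files. MYB96 thus fell by 0.54, or 1.45-fold (SE 0.0339, limma adjusted p = 0.000767). Among 55 other wax pathway genes, those whose values, centred on their own mean over the 4 arrays, lay nearest to those of MYB96 were CER2 (Euclidean distance 0.0511), KCS12 (0.0576) and LACS1 (0.0605). With 4 arrays in a pair of tight groups, such nearness reflects little more than a difference of like size.

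Other genes of the pathway were read from a list of 47 loci, also chosen with earlier results of these data known. Of these, 46 were on the array and 43 were tested. Of those 43, 31 were lower in the ced2 files, 7 were higher and 5 did not pass, with a median difference of -0.30 beside 0.05 for all genes tested. Set against the background, 35.6% of all genes were lower and 42.4% higher. At 2-fold, 6 of the 43 were lower and 2 higher, beside 3.32% lower and 8.01% higher of all genes tested. Some of these lay near the cut: KCS2 (-1.02), CER26 (-1.04), MYB106 (-1.11) and CB5-B (1.02). CB5-B was under 2-fold with quantile normalization (0.93), KCS2 with normexp (-0.993) and MYB106 with the local background subtracted (-0.87). FAR4 was not analysed here, and FAR6, SHN1 and SHN3 were not well above background in either group.

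Among all genes tested, 35.6% were lower and 42.4% higher. Condensing enzymes of the KCS family, to which KCS6 belongs, were lower in 8 of 10 cases, higher in 1 and not past the threshold in 1. The higher one was KCS9, by 0.09 (adjusted p = 0.0347), a call that was lost without any one of the 4 arrays (adjusted p between 0.0806 and 0.186) and whose sign turned when its 3 probes were averaged (-0.051). KCS13, which was dim, differed by 0.86 (adjusted p = 0.0588), passed without either ced2 array (adjusted p = 0.00813 and 0.0202) and turned to -0.89 with normexp (adjusted p = 0.00669). KCS3 fell the most, from 3.05 on both WT arrays to 1.77 and 1.76 (a fall of 1.29, adjusted p = 0.00016). KCS2, which is also active in root suberin, fell by 1.02, KCS16 by 0.64 and KCS12 by 0.55 (adjusted p between 0.000186 and 0.00044). KCS5, the closest relative of KCS6, fell by 0.54 (adjusted p = 0.000385), which did not pass when its probes were averaged (-0.442, adjusted p = 0.194), and probes may not fully separate members of this family.

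All 5 remaining elongation genes were lower, beside 35.6% of all genes tested. KCR2, the relative of KCR1 that does not replace it in the plant, had -3.09 and -3.06 in the WT files and -4.90 and -5.01 in the ced2 files, and fell by 1.88 (adjusted p = 0.000205). CER26, a relative of CER2, fell by 1.04, with 3 probes between -1.04 and -0.94 (adjusted p = 0.000372). ACC1, the carboxylase that supplies malonyl-CoA for elongation, fell by 0.74 (adjusted p = 0.00202), and PAS2, the dehydratase of the complex, fell by 0.35 (adjusted p = 0.00257). The KCR1 and KCR2 pair thus differed in size, at -0.17 and -1.88, with 95% intervals of -0.26 to -0.09 and -2.03 to -1.74. The KCR2 spots were dim in the ced2 files, and with the local background subtracted the pair differed by -0.11 and -1.56.

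**Figure D5:**
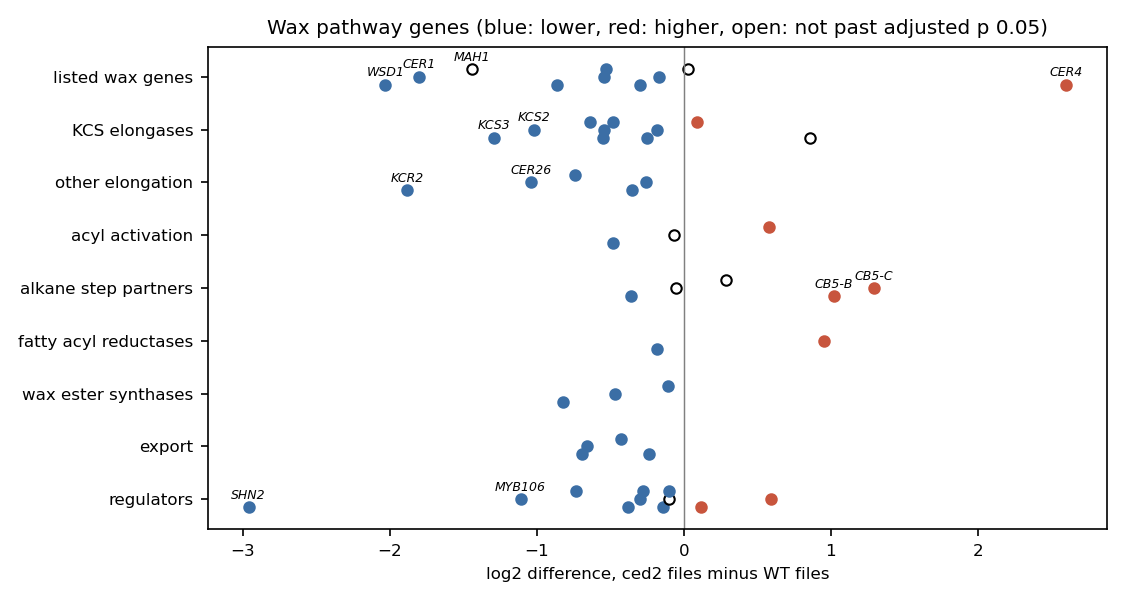
Log2 difference between ced2 and WT files (horizontal axis) for the 10 wax genes and 43 other genes of the pathway, 1 point per gene by group, blue where lower, red where higher and open where the adjusted p of 0.05 was not passed. Most points lie left of 0, with SHN2 the lowest at -2.96, and CER4, CB5-C and CB5-B lie farthest to the right.

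Genes that activate fatty acids split. LACS1, an acyl-CoA synthetase of very long chains, fell by 0.48 (adjusted p = 0.000508), a call lost when its 3 probes, 1 of them very dim, were averaged (-0.183, adjusted p = 0.288). LACS2, which serves cutin, rose by 0.58 (adjusted p = 0.00122), and LACS4 did not pass (-0.07, adjusted p = 0.0717). Among the possible partners of the alkane step, cytochromes b5, of which some are known as cofactors of the alkane-forming complex, CB5-C rose by 1.29 (adjusted p = 0.000207), CB5-B rose by 1.02 (adjusted p = 0.000311) and CB5-D fell by 0.36 (adjusted p = 0.000823). CB5-E (-0.05, adjusted p = 0.0912) missed the threshold and lay at 0.028 after quantile normalization. AT1G02190, a CER1-like gene and not a cytochrome b5, did not pass either (0.29, adjusted p = 0.18). Its sign turned with normexp (-1.148, adjusted p = 0.00354). So CER1 was lower while CB5-C was higher, at 0.59 and 0.57 in the ced2 files against -0.68 and -0.75 in the WT files.

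Of the reductases related to CER4, FAR5, which makes alcohols of root suberin, rose by 0.95, from -2.99 and -2.97 to -2.03 on both ced2 arrays (adjusted p = 0.00019), and its second probe differed by 0.87. FAR1, also of suberin, fell by 0.18 (adjusted p = 0.0046). Of the family of WSD1, AT3G49210 fell by 0.82 (adjusted p = 0.000245), WSD11 fell by 0.47 (adjusted p = 0.00825) and AT5G12420 fell by 0.11 (adjusted p = 0.0181). The WSD11 probe was well above background on 1 of the 2 ced2 arrays, its difference was -1.37 with normexp, and its call was lost without WT replicate 1 (adjusted p = 0.0529). The call of AT5G12420 was lost without any one of the 4 arrays (adjusted p between 0.063 and 0.118).

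All 4 export genes were lower, beside 35.6% of all genes tested. The ABC transporters ABCG11 and ABCG12, which move wax across the plasma membrane, fell by 0.69 and 0.66 (adjusted p = 0.000252 and 0.000265), with log2 signals of 2.52 and 2.50 against 1.82 and 1.82 for ABCG11. The lipid transfer proteins LTPG1 and LTPG2, which are anchored at the outer face of that membrane, fell by 0.43 and 0.24 (adjusted p = 0.00105 and 0.00617), and LTPG2 did not pass with normexp (-0.158, adjusted p = 0.0613).

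Regulators were lower in 8 of 11 tested cases, higher in 2 and not past the threshold in 1. The lower ones include CER9, whose brightest probe differed by -0.38 while its other probes gave 0.07 and 0.28. The shares over all genes tested were 35.6% lower and 42.4% higher. MYB41 did not pass (-0.10, limma adjusted p = 0.0675), but did with quantile normalization (-0.211, adjusted p = 0.0108). SHN2, of the SHINE family of cuticle regulators, had -4.08 and -4.17 in the WT files and -7.09 and -7.08 in the ced2 files, and fell by 2.96 (adjusted p = 0.00016). With the local background subtracted its fall was 1.79 (adjusted p = 0.000149), and with normexp it was 2.26 (adjusted p = 0.000362), since the ced2 spots were dim. MYB106, which acts in cuticle and leaf hair formation, fell by 1.11 (adjusted p = 0.00581). Its ced2 spots were dim too, and with the local background subtracted it fell by 0.87, while its other probe gave -1.85 in the processed signal. MYB94, the closest relative of MYB96, fell by 0.73 (adjusted p = 0.00124). MYB30, an activator of very long chain synthesis in pathogen responses, rose by 0.59 (adjusted p = 0.00159). DEWAX, a repressor of wax genes in the dark, fell by 0.28 (adjusted p = 0.00197).

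Markers of organs and cell layers also differed between the files, where 35.6% of all genes tested were lower and 42.4% higher. Of 5 epidermis markers (ATML1, PDF1, PDF2, ACR4 and LTP1), 5 were lower, by a median difference of -0.26 and a lowest of -0.50. Their summed signal in units of the 75th percentile was 62.3 and 72.1 in the WT files and 50.1 and 46.9 in the ced2 files, of which LTP1 alone made up 86.9% to 89.5%. Without LTP1, whose difference moved from -0.49 to -0.21 with quantile normalization, the sum was 7.56 and 7.59 against 6.08 and 6.16. The 2 probes of PDF2 differed in sign, at -0.12 for the brighter probe and 0.12 for the other, and PDF2 did not pass with quantile normalization (limma, adjusted p = 0.0822). The 10 root and root hair markers were IRT1, COBL9, EXPA7, EXPA18, RHD6, RSL4, SCR, SHR, WOX5 and PRP3. Of these 9 were higher, between 0.16 for WOX5 and 3.37 for IRT1, and SCR (0.09) did not pass. Their summed signal was 0.983 and 0.982 in the WT files against 1.95 and 1.95 in the ced2 files. SCR alone made up 39.5% and 41.5% of it in the WT files and 21.6% in both ced2 files. Without SCR the sum was 0.595 and 0.574 against 1.53 and 1.53, and a sum without IRT1 was not taken. With quantile normalization 8 of the root list were higher and 2 did not pass. With normexp background correction 6 were higher, 1 was lower and 3 did not pass. WOX5 went from 0.16 to -0.06 with quantile normalization and to -0.21 with normexp, and PRP3 from 0.74 to 0.08 with normexp, while its other probe gave -1.35. Of 5 markers of green tissue 2 were lower, 1 was higher and 2 did not pass, with a summed signal of 528 and 610 against 477 and 403. The higher one was LHCB2.1 (0.77), whose other probe gave -0.175. Probes of LHCB1.3 lay between -0.49 and 0.14, and those of RBCS1A between -0.32 and 0.22. The lower values of the green tissue list depended on the scaling. With quantile normalization 2 were higher, 0 were lower and 3 did not pass, with LHCB1.3 at -0.03, LHCA1 at 0.01, PSBO1 at 0.02 and RBCS1A at 0.13. Without WT replicate 1, WT replicate 2 or ced2 replicate 2, 0 of the green tissue markers were called lower, and without 1 array in turn 2 to 4 epidermis markers were lower and 8 to 10 root markers higher. All 20 markers were well above background on all 4 arrays. In whole seedlings, fewer cells of a type and less RNA per cell cannot be told apart, and the part of organ proportions in the wax gene differences was not tested. All arrays shared 1 slide, with the wild type at positions 1 and 2 and the mutant at 3 and 4, so effects of genotype and of slide position cannot be told apart. Over non-control spots the processed signal had a median of 341 and 405 for the wild type and of 524 and 630 for ced2. No probe was flagged as saturated. The brightest PSBO1 probe had processed signals of 463000 on both WT arrays and of 473000 and 466000 on the ced2 arrays. The 75th percentiles used for scaling were 3342 and 2807 for the wild type and 3724 and 4465 for ced2. Before scaling PSBO1 was thus nearly level, and a ceiling below the saturation flag was not tested.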

How the data were processed

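Total RNA of 4 PEG-treated seedling pools was labelled with Cy3 and hybridised to one-colour Agilent arrays, per the labels' protocols. The submitters' processing notes name Agilent Feature Extraction 10.7.1.1 as the software that quantified the scans. The deposited scanner files hold spot intensities on a linear scale (processed signal with its error, spot median, local background), not normalized between arrays, per the file headers. The authors' deposited value table holds log2 values, whose scale and centring are not given in the sources used here. Set against the scanner files it matched log2 processed signals centred on each probe's median, with column medians of 0.08, -0.03, 0.01 and -0.03, and with genotype labels exchanged.

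Spots of controls and those flagged as outliers were removed, which cost 70 of 43603 probes. Signals were put on a log2 scale relative to the 75th percentile of their array. Accessions of the probes, without version numbers, were looked up in RefSeq's genes of TAIR10.1, for names alone; 34236 probes found a gene, and the other 9297 went into no test. Coordinates are left out because the arrays were designed on an earlier build, per the file headers. No sequences were in the sources used here. The brightest probe on average stood for each gene, a choice that mattered for 6903 genes, and the gene was tested if 1 group or both had it well above background on its 2 arrays.

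Groups were compared with limma 3.58.1 (R 4.3.3, lmFit and eBayes), ced2 files minus WT files, two-sided, Benjamini-Hochberg over all 20835 genes, with 2 residual and 1.49 prior degrees of freedom. The fit was tested on simulated data with independent noise per probe and changes of whole log2 units. That simulation held no smaller changes and no effect of array or slide position, so it does not bear on those. Normexp used an offset of 50 on the spot median, since the files hold no spot mean. The members and lists were chosen with earlier results of these data known. Of each pathway group, up to 4 genes past the threshold with the largest absolute difference are named by rule, and further genes are examples chosen after their values were seen.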

Additional observations from a re-analysis of the deposited data

How the results depend on the processing

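Over the settings tried on all 4 arrays at an adjusted p of 0.05, between 7 and 9 of the wax genes tested passed. Of the wider list between 34 and 40 passed. Beside these, the share of all genes that passed lay between 61.3% and 80.6%. Leaving out 1 array in turn gave 7 to 8 wax genes, 31 to 35 of the wider list and 13833 to 15121 of all genes, against 16239 with all arrays, and the count at 2-fold was 3 to 4. The normexp setting moved the split of all calls from 8831 higher and 7408 lower to 5696 higher and 9937 lower, and the median difference of all genes from 0.047 to -0.14. With the replicate number as a block the wax genes past the threshold were 8 and those of the wider list 37, beside 75.3% of all genes. Same-numbered arrays did not deviate together (r = 0.05 over 20835 genes), and with 2 arrays per group the numbers give no pairing. The report gives only some of the calls that ended or appeared. KCS13 (0.86) also passed with an intensity trend (limma, adjusted p = 0.0333) and with the filter asking for all 4 arrays (adjusted p = 0.0399), and MYB41 (-0.10) with an intensity trend (adjusted p = 0.04). Of 129 comparisons of a wax gene with an alternative on the scanner files, 119 kept direction and side of the threshold, 4 lost the call, 4 gained it and 2 turned sign: CER4 with normexp (-0.036) and CER10 with probes averaged (-0.021). For the other named genes (here and below without CER9 and the markers), 434 of 467 kept both, 17 lost the call and 10 gained it. In 6 the sign turned: KCS9 with probes averaged (-0.051), KCS13 with normexp (-0.891), CB5-E with quantile normalization (0.028), and AT1G02190 with normexp (-1.148), with the local background subtracted (-0.099) and with normexp fitted without spots of high local background (-0.144). An adjusted p of 0.01 left 8 wax genes and 32 of the wider list, beside 63.9% of all genes tested. Signal over background limits CER4, MAH1, WSD1, WSD11, KCS13, AT1G02190, KCR2, MYB106 and SHN2.

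Under the labels of the authors' value table every sign turned. The differences were then 0.859 for KCS6, 0.172 for KCR1, -0.031 for CER10, 0.532 for CER2, 0.298 for CER3, 1.804 for CER1, 1.44 for MAH1, -2.599 for CER4, 2.027 for WSD1 and 0.539 for MYB96. For the other named genes they were 1.291 for KCS3, 1.021 for KCS2, 0.639 for KCS16, 0.548 for KCS12, 1.883 for KCR2, 1.044 for CER26, 0.741 for ACC1, 0.351 for PAS2, -0.578 for LACS2, 0.485 for LACS1, -1.293 for CB5-C, -1.019 for CB5-B, 0.359 for CB5-D, -0.949 for FAR5, 0.179 for FAR1, 0.825 for AT3G49210, 0.469 for WSD11, 0.106 for AT5G12420, 0.689 for ABCG11, 0.662 for ABCG12, 0.431 for LTPG1, 0.236 for LTPG2, 2.962 for SHN2, 1.108 for MYB106, 0.735 for MYB94, -0.588 for MYB30, 0.538 for KCS5, -0.086 for KCS9, -0.861 for KCS13, 0.068 for LACS4, 0.055 for CB5-E, -0.286 for AT1G02190, 0.1 for MYB41, 0.279 for DEWAX, 3.668 for VSR1 and 1.331 for NCED3.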
